A study of Mus musculus with 4 samples.

Results

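The genes followed here are 32 genes that copy DNA or act during S phase, the part of the cell cycle in which the genome is replicated. They were taken by name from a table of 19321 mouse genes and were followed singly and summed. They comprise 10 genes of origin licensing and the replicative helicase (Mcm2 to Mcm7, Cdc6, Cdc45, Gins2, Gmnn), 6 of the polymerase and fork machinery (Pola1, Prim1, Pcna, Rfc2, Fen1, Rpa2), 3 of nucleotide supply (Tyms, Rrm1, Rrm2), 4 of histone supply and chromatin (Chaf1b, Nasp, Slbp, Hells) and 9 of fork protection, checkpoint and repair (Tipin, Clspn, Dtl, Usp1, Ung, Exo1, Blm, Rad51ap1, Wdr76).

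Replication starts when Cdc6 and its partners load the Mcm2 to Mcm7 ring onto origins, which Gmnn (geminin) limits to a single firing per cycle. Cdc45 and the GINS complex turn the ring into a moving helicase, and Pola1 and Prim1 prime the new strands that Pcna clamps. In the fetal ovary, germ cells divide by mitosis and then, under retinoic acid and the gene Stra8, go through a last S phase before entering meiotic prophase. A mitotic S phase is followed by mitosis in the same cycle, and the premeiotic S phase is not.

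XX gonads of C57BL/6 mouse embryos were taken at daily intervals, at E11.5 and E12.5 and again at E13.5 and E14.5 (days after mating), dissociated and profiled on a droplet platform (10x Chromium, 3′ kit, version 2), with 1 library per stage. All 4 groups share the strain and the sex, and no transgene or treatment is named. Whether gonads of several embryos were pooled is not given in the sources used here. Stage and library cannot be told apart, so stage differences are given with counting intervals and no p-value. The libraries held 4787 to 4916 cells with a median of 11361 to 14258 unique molecular identifiers (UMIs), 175 barcodes occurred in more than 1 library, and 18970 of 19387 cells were kept.

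Germ cells were the cells with UMIs of at least 3 of Dazl, Ddx4, Dnd1, Mael, Dppa5a and Mov10l1. Series of 4 values below follow the order of the stages, earliest first. There were 245, 650, 756 and 2410 germ cells. The other cells were clustered without the members and named from marker lists as supporting-like (2355, 2179, 1767 and 581 cells), interstitial-like (650, 577, 1140 and 492) and surface epithelial-like (1201, 984, 718 and 720). In germ cells the 10 supporting markers summed to 54.9 to 90.4 CPM (UMIs per 1000000 UMIs of the group, not scaled to gene length), against 2528 to 2734 CPM in the supporting-like cells. The surface epithelial-like class was the least distinct. Its own 12 markers summed to 787 CPM in the first library, beside 655 CPM for the interstitial and 472 CPM for the supporting markers, and to 2570.1 CPM in the last. Different clusters filled these classes at different stages: supporting-like cells came mostly from clusters 1 and 2 in the first library, 16 and 20 in the second, 16, 17 and 20 in the third and 17 in the last. Interstitial-like cells came mostly from clusters 3 and 4 in the first library and 3 and 18 in the later ones, and surface epithelial-like cells from 6 and 8, then 7 and 9 in both middle libraries, then 23 and 7.

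Many S-phase genes carry sites for E2F factors near their start, so the promoters of several members are shown first. RefSeq windows of 250 bases before to 50 after the transcription start (build GRCm38.p6) matched 25 of the 32 members. The letters TTTCCCGC, TTTCGCGC, TTTGCCGC and TTTGGCGC, which spell the common E2F-type site, were searched on both strands. They occurred in 9 of the 25 (Mcm3, Mcm5, Mcm6, Mcm7, Cdc6, Hells, Clspn, Dtl and Pola1), that is 36.0%, and in 704 of 27025 genes of the table, that is 2.605%. The 250 bases before the start are printed 5′ to 3′ for Hells, the most abundant member, Mcm6, which had 3 matches, Cdc6, Mcm7 and Ung, with capitals marking the matches. Ung is included as a member without a match whose level in germ cells was lower at each later stage.
Hells, chr19:38930740-38930989, plus strand: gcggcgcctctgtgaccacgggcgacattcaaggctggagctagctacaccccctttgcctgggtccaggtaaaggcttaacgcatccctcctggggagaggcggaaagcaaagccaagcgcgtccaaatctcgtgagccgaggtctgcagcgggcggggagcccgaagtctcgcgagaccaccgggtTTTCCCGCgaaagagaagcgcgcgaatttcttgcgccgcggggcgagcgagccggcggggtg
Mcm6, chr1:128359706-128359955, minus strand: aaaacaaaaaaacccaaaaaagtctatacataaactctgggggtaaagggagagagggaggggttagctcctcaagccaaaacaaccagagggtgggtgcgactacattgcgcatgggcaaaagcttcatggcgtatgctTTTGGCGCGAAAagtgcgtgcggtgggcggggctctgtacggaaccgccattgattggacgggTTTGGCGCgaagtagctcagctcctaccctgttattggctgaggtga
Cdc6, chr11:98907901-98908150, plus strand: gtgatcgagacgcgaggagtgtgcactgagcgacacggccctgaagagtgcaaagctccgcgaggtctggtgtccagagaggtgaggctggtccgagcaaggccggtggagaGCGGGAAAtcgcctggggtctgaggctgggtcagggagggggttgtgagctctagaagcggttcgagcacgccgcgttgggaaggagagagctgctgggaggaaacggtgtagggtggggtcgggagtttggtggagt
Mcm7, chr5:138171884-138172133, minus strand: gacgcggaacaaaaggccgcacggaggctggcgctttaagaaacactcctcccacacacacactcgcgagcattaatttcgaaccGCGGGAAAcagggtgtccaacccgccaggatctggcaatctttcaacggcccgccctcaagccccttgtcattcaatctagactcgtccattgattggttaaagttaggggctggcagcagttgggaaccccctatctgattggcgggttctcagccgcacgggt
Ung, chr5:114130185-114130434, plus strand: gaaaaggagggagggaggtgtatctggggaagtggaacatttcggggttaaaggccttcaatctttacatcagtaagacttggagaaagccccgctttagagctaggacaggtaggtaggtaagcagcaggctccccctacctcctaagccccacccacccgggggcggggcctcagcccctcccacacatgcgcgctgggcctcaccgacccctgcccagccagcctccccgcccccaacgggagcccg

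The Hells match began 62 bases before the start, that of Cdc6 138 bases and that of Mcm7 165 bases before it. In Mcm6, matches began 110, 106 and 47 bases before the start, and the first pair overlapped on opposite strands. The matches of Clspn and Mcm3, and a second one of Mcm7, lay after the start. These are matches of letters, not measured binding. The 9 genes did not share a direction in germ cells, as described next: Hells, Clspn and Pola1 were higher at E14.5 than at E11.5, and Mcm7 and Dtl were lower.

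Summed over the 32 genes, the level in germ cells was 3300.3, 3873, 3979 and 4745 CPM over the 4 stages. The E14.5 level was 1.44-fold that of E11.5, a log2 ratio of 0.52 (95% counting interval 0.51 to 0.54). Much of this difference was Hells, a chromatin remodeler of the SNF2 family needed for DNA methylation at repeats. Hells made up 11.6%, 16.1%, 21.3% and 29.1% of the sum over the stages. Without Hells the sums were 2917, 3248, 3133 and 3362 CPM, a log2 ratio of 0.20 (0.18 to 0.22) between E14.5 and E11.5. The median gene of germ cells was itself higher at E14.5 by 0.45 on the log2 scale, and a median-of-ratios scale, which sets the median gene to no change, left 0.09 for the sum of all members. Other signals of the germ cells moved with stage too: the 8 erythroid markers summed to 2590.2, 1657, 1430 and 4541 CPM, the 14 interstitial markers to 24.8, 22.0, 41.9 and 89.9 CPM, and median depth was 31268, 27740.0, 24829.5 and 15541 UMIs. Without germ cells over 1% erythroid UMIs the log2 ratio of the member sum was 0.53, and the part of the other signals was not tested. Counting intervals cover counting error only, and the spread between embryos of a stage was not measured.

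Members were then read one by one with a rule of size: at least 50 UMIs over both groups, CPM that differ by 1.5 times or more, and separate 95% Poisson intervals. Between E11.5 and E14.5 the rule called 10 of 32 members higher and 3 lower in germ cells. Of the 12412 genes with enough UMIs, 40.4% were called higher and 13.9% lower, so the members' shares are below the background for higher calls. On the median-of-ratios scale 3 members were called higher and 9 lower. The share of all genes called on that scale was not computed, so these counts have no background. The median log2 ratio of the members was 0.37, and that of all genes 0.45.

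**Figure D1:**
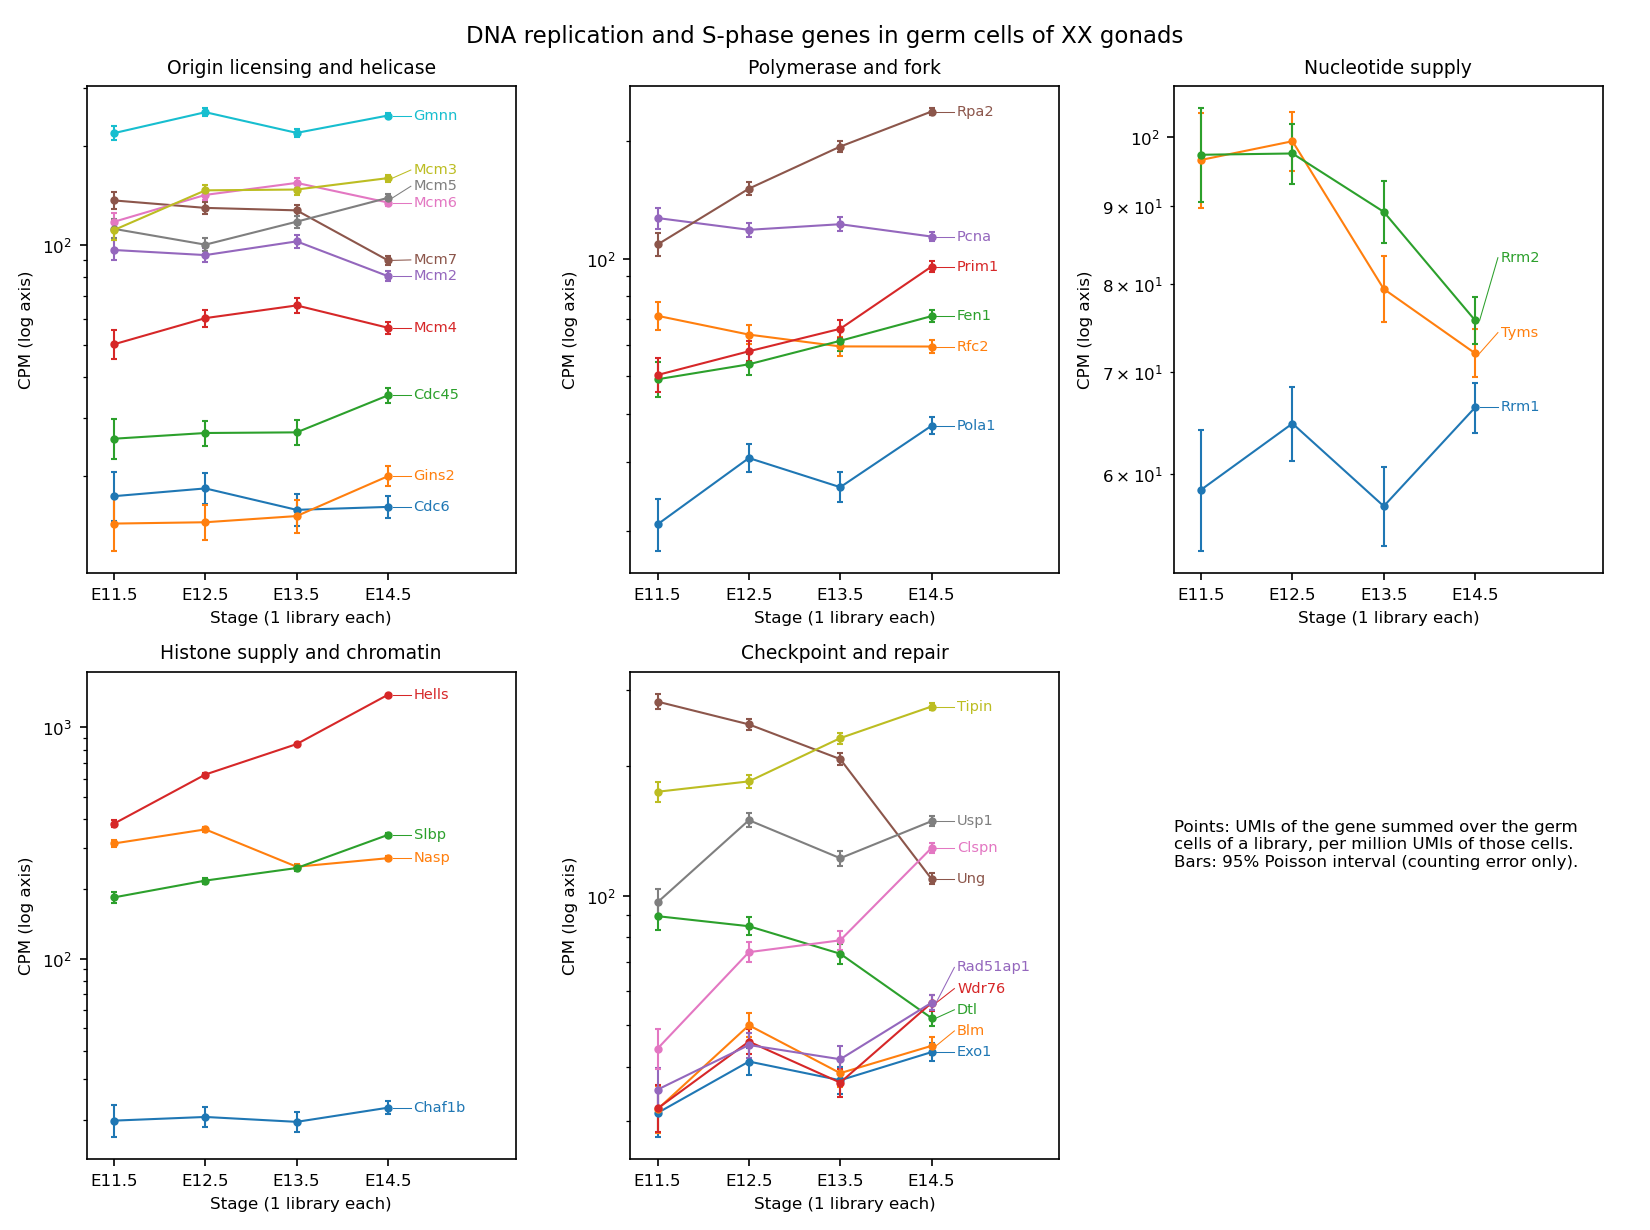
Level of each member in germ cells (CPM, log axis) against stage, 1 panel per role, with 95% Poisson intervals as bars. Hells climbs from 383 to 1383 CPM, Clspn, Rpa2 and Prim1 are higher at each later stage, and Ung and Dtl are lower at each later stage.

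In histone supply and chromatin, Hells was the most abundant member at each stage. It stood at 383, 625, 846 and 1383 CPM, higher at each stage than at the one before, a 3.61-fold difference between the ends (log2 1.85, interval 1.80 to 1.90). Slbp, which binds the stem-loop of histone mRNAs, was at 184, 217, 246 and 343 CPM (log2 0.90, interval 0.82 to 0.98). Nasp, a histone chaperone, was at 314, 362, 249 and 272 CPM, and Chaf1b, a subunit of the chromatin assembly factor CAF-1, stayed between 19.7 and 22.6 CPM. Neither passed the rule, and of this role only Hells and Slbp were called.

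At the fork, Rpa2, a subunit of the single-strand binding protein RPA, was at 109, 151, 194 and 239 CPM, 2.19-fold higher at E14.5 than at E11.5 (log2 1.13, interval 1.03 to 1.24). Prim1, the catalytic subunit of primase, was at 50.3, 57.8, 66.1 and 95.4 CPM (log2 0.92, interval 0.78 to 1.08). Pola1, the catalytic subunit of DNA polymerase alpha, was at 20.8, 30.8, 25.9 and 37.2 CPM. All 3 were called higher. Pcna was nearly level at 127, 119, 123 and 114 CPM, and Rfc2, a subunit of the loader that places Pcna on DNA, was at 71.3, 63.8, 59.5 and 59.5 CPM. Fen1, the flap nuclease of Okazaki fragments, was at 49.0, 53.6, 61.5 and 71.2 CPM and was not called.

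The levels of the 10 helicase genes summed to 901, 986, 993 and 979 CPM. Mcm7 was the 1 member of this role that was called, at 137, 130, 128 and 90.0 CPM (log2 -0.60, interval -0.70 to -0.50). Its ring partners did not share that pattern. Mcm3 was at 111, 147, 148 and 160 CPM and Mcm5 at 112, 100.4, 118 and 139 CPM, both not called, and on the median-of-ratios scale the Mcm5 ratio turned to -0.13. Mcm6 peaked at E13.5 with 154.5 CPM, and Mcm2 and Mcm4 also had their highest value there. Gmnn was the most abundant of the role at 219, 253, 219 and 247 CPM, while the loader Cdc6 was between 15.8 and 18.4 CPM. Cdc45 was at 26.0, 27.0, 27.1 and 35.1 CPM, a slow climb that the rule did not call.

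The 3 nucleotide genes summed to 252, 262, 226 and 214 CPM, and none was called. Tyms, which makes thymidylate, was at 96.5, 99.3, 79.4 and 72.0 CPM, and Rrm2, the small subunit of ribonucleotide reductase, at 97.3, 97.5, 89.2 and 75.7 CPM. Rrm1, its large subunit, did not follow, at 58.6, 64.8, 57.2 and 66.4 CPM.

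Checkpoint and repair genes were called in both directions. Clspn (claspin), an adaptor of the ATR checkpoint, was at 44.1, 73.9, 78.7 and 129 CPM, 2.93-fold higher at E14.5 (log2 1.55, interval 1.39 to 1.71). Tipin, of the fork protection complex, was at 174, 184, 232 and 275 CPM (log2 0.66, interval 0.58 to 0.74). Usp1, Rad51ap1 and Wdr76 were also called higher, with log2 ratios of 0.63, 0.67 and 0.82. Usp1, the deubiquitinase of Pcna, did not climb steadily, at 96.5, 149.8, 122 and 149 CPM. Exo1, an exonuclease of mismatch repair, and Blm, a RecQ helicase, were at 31.3 to 43.3 and 31.9 to 49.96 CPM and were not called over the whole span. Ung, the glycosylase that removes uracil from DNA, went the other way at 283, 250.1, 208 and 109 CPM, so that E14.5 held 0.39 of the E11.5 level (log2 -1.37, interval -1.44 to -1.30). Dtl, which targets Cdt1 for destruction during S phase, was at 89.6, 84.9, 73.3 and 51.9 CPM (log2 -0.79, interval -0.91 to -0.66). Under the median-of-ratios scale Ung, Dtl and Mcm7 remained below 0, at -1.81, -1.22 and -1.04, and Hells, Clspn and Rpa2 above it, at 1.41, 1.11 and 0.70.

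Stage by stage, 4 members were called higher from E11.5 to E12.5 (Hells, Clspn, Usp1 and Blm) and 0 lower, where 10.1% and 2.95% of all genes were called. From E12.5 to E13.5 no member passed the rule in either direction, where 13.4% of genes were called higher and 4.36% lower. From E13.5 to E14.5 Hells, Clspn and Wdr76 were called higher and Ung lower, where 24.7% and 9.82% of genes were. On the median-of-ratios scale these steps gave 2 higher and 0 lower, 0 and 1, and 0 and 3, without a computed share of all genes. Over the 3 steps, 10 members were higher at every stage than at the one before and 4 (Mcm7, Rfc2, Dtl and Ung) lower, with steps of any size counted. Of 13209 genes with at least 50 UMIs over the stages, 27.2% were higher at every stage and 10.7% lower, so the members' shares lie near the background.

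The wider replication genes and the mitosis genes stand beside these values. Of 55 further replication genes (ORC, polymerase, RFC, E2F and others), 20 were called higher and 6 lower in germ cells between E11.5 and E14.5, beside 40.4% and 13.9% of all genes, and on the median-of-ratios scale 8 were called higher and 15 lower. Of 24 mitosis genes, 5 were called higher and 4 lower (Ccnb1, Ccna2, Aurka and Aurkb, which encode mitotic cyclins and kinases), and on the median-of-ratios scale 3 higher and 8 lower. For both lists the share of all genes called on that scale was not computed. The mitosis genes summed to 2847, 3678, 3148 and 2886 CPM. The members therefore amounted to 1.16, 1.05, 1.26 and 1.64 times the mitosis sum over the 4 stages, or 1.02, 0.88, 1.00 and 1.16 times without Hells. With Hells, the ratio was 2.53, 2.68, 5.02 and 5.60 in supporting-like cells, above germ cells at each stage. It was 1.26, 0.88, 1.15 and 0.67 in interstitial-like and 1.29, 0.87, 0.95 and 1.04 in surface epithelial-like cells. A high ratio was therefore not particular to germ cells.

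To set the premeiotic S phase beside mitotic use, germ cells were sorted by Stra8. The Stra8 level does not separate that S phase from the prophase that follows it. Most E14.5 cells with 3 or more Stra8 UMIs also held UMIs of prophase genes, as given below. Each cell was thinned to 5000 UMIs, a depth every cell reached, and placed in bins of 0, 1-2, 3-5 and 6 or more Stra8 UMIs. The bins held 518, 166, 53 and 19 cells of the third library and 299, 454, 709 and 948 of the last. Levels in the bins use all UMIs of the cells, so a cell of the 0 bin is low in Stra8 and need not lack it: over the bins Stra8 itself stood at 27.3, 264, 611 and 1122 CPM in the third library and 103, 427, 866 and 1607 CPM in the last.

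At E14.5 the members summed to 4503, 4443, 4587 and 5168 CPM over the bins, from 0 to 6 or more. The mitosis genes went the other way, at 3574, 3489, 2836 and 2251 CPM. Cells with 3 or more Stra8 UMIs held 1.09 times the member sum of cells with 0 (log2 0.12, interval 0.10 to 0.14) and 0.70 times the mitosis sum (log2 -0.51, interval -0.53 to -0.48). The ratio of the sums was thus higher by 0.63 on the log2 scale. In this contrast the median of all genes was itself higher by 0.08, and the median member by 0.03. Without Hells the member sums were 3400.0 and 3406 CPM, within counting error of each other (interval of the log2 ratio -0.02 to 0.02), and the ratio to mitosis was higher by 0.50. That pooled value joins bins that differed: without Hells the sum was 3406 CPM at 0 (interval 3360 to 3452), 3199.5 at 3-5 (3167 to 3232) and 3565 at 6 or more (3534 to 3596). The 8 erythroid markers summed to 6384, 4293, 5995 and 2695 CPM over the bins, and without the germ cells over 1% erythroid UMIs the member sum differed by 0.12 and the ratio by 0.62. The 10 supporting markers summed to 178, 94.8, 76.7 and 60.7 CPM over the same bins, and median depth went from 19350.0 to 14164.5 UMIs per cell. The part of supporting RNA and depth in the result was not tested.

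At E13.5 the ratio differed less. The counting interval of the mitosis sum was 3152 to 3211 CPM in the 0 bin. It lay below that in the 1-2 bin (3013 to 3122) and in the top bin of 19 cells (2392 to 2745). At 3-5 it overlapped the 0 bin (3078 to 3280). The members summed to 3874, 4263, 4172 and 4292 CPM over the bins, and the mitosis genes to 3182, 3067, 3178 and 2564 CPM. The ratio of the sums in cells with 3 or more Stra8 UMIs was higher by 0.18 than in cells with 0. The member sum itself was higher by 0.12 on the log2 scale, and without Hells it was level here too (log2 0.00, interval -0.04 to 0.04). The ratio to mitosis without Hells was not computed, so the 0.18 includes the Hells difference. The median of all genes was higher by 0.11 in this contrast, and the median member by 0.09. The 3-or-more group held 72 cells.

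**Figure D2:**
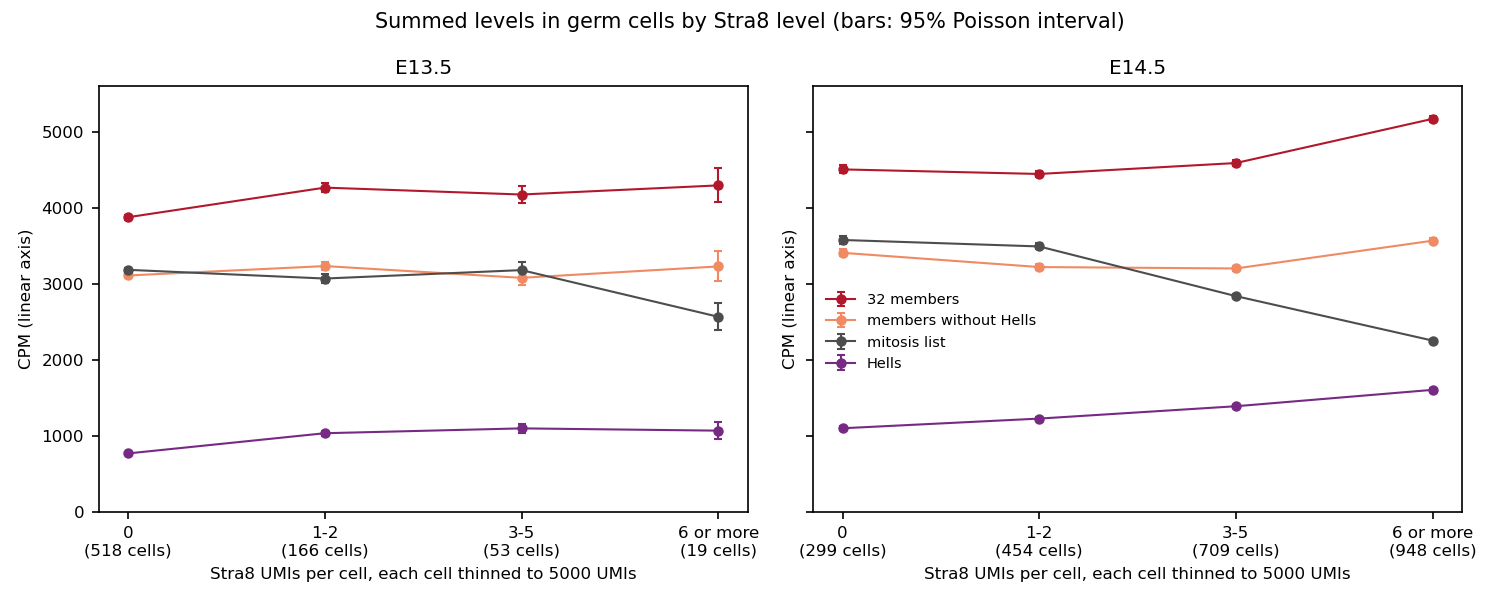
Summed CPM (linear axis) of the members, the members without Hells, Hells and 24 mitosis genes in germ cells by Stra8 UMIs per cell, for E13.5 (left) and E14.5 (right), with 95% Poisson intervals as bars. At E14.5 the mitosis list is at 3574 CPM in the 0 bin and 2251 CPM in the bin of 6 or more, while the members without Hells stay between 3199.5 and 3565 CPM.

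Single members differed in this contrast. Hells was at 1097, 1225, 1387 and 1603 CPM over the Stra8 bins of E14.5, and at 767, 1032, 1096 and 1066 CPM over those of E13.5. Clspn was at 95.3, 112, 128 and 155 CPM at E14.5 and Mcm5 at 114, 121, 128 and 171 CPM. Ung was at 175, 122, 89.5 and 89.2 CPM at E14.5 and at 230.2, 165, 114 and 106 CPM at E13.5, so it was lower with more Stra8 in both libraries. Mcm7 was at 124, 92.4, 81.1 and 81.0 CPM at E14.5, Tyms at 94.8, 85.6, 63.8 and 60.5 CPM, and Mcm6 at 161, 145, 128 and 122 CPM. The ring genes Mcm2 to Mcm7 together were at 730, 675, 621 and 655 CPM.

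By the rule of size, 3 or more against 0 Stra8 UMIs, no member was called higher at E14.5 and 3 were called lower (Mcm7, Tyms and Ung), where 17.8% of all genes were called higher and 13.4% lower. At E13.5 no member was called higher and 2 lower (Dtl and Ung), where 10.7% and 6.16% of genes were. Dtl was not lower at E14.5 (log2 0.10, interval -0.07 to 0.28). Clspn, at a log2 ratio of 0.58 at E14.5 and 0.57 at E13.5, and Hells, at 0.46 and 0.51, were under the ratio the rule asks for. On the same contrast 10 of the 24 mitosis genes were called lower at E14.5 and 0 higher. At E13.5, 0 were called lower and 2 higher (Kif23 and Hmmr), so the lower calls were not shared by the 2 libraries. Of the wider replication list 9 were called higher and 3 lower at E14.5 (Rpa1, Rnaseh2a and E2f8).

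Sorting by the synaptonemal complex genes Sycp1, Sycp2 and Sycp3, which mark entry into prophase, was done as a further view of E14.5. With 0, 1-2, 3-5 and 6 or more of their UMIs per cell the members summed to 4551, 4574, 4723 and 5066 CPM and the mitosis genes to 3320, 3335, 2734 and 2299 CPM. The order of the member sum followed Hells. Without Hells the sums were 3436, 3326, 3312 and 3406 CPM. Mcm2 to Mcm7 together stood at 748, 708, 658 and 560 CPM, lowest in the 778 cells of the top bin. Of the E14.5 cells with 3 or more Stra8 UMIs, 78, 328, 548 and 703 fell in these bins. Over the bins their Mcm2 to Mcm7 sum was 735, 688, 662 and 579 CPM, and their mitosis sum 2668, 2949, 2473 and 2279 CPM. That group was therefore not cells of the premeiotic S phase alone. At E13.5 the member sums were 3949, 4071, 3816 and 3422 CPM, with 32 and 5 cells in the upper bins.

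The spread between cells also differed. After thinning to 5000 UMIs, the median germ cell held 16, 19, 20 and 24 member UMIs over the stages, and the 10th to 90th percentile ran from 15 to 34 at E14.5. The variance of the counts divided by their mean, which is 1 for counting noise alone, was 1.91, 2.51, 2.57 and 2.26 in germ cells and 5.19 to 7.28 in interstitial-like and surface epithelial-like cells. Supporting-like cells were at 2.80, 2.77, 1.72 and 1.80. The mean count was 7.18, 6.95, 4.94 and 6.05 member UMIs in them, against 16.7, 19.9, 20.4 and 24.1 in germ cells. For the same relative spread between cells the ratio is smaller at a lower mean. Similar ratios in these 2 classes are therefore not similar relative spread. Within the E14.5 germ cells the variance-to-mean ratio was 3.03 in the 0 bin of Stra8 and 2.64, 1.98 and 1.76 in the further bins. The mitosis list had a ratio of 5.04 in E14.5 germ cells and 24.5 in E14.5 interstitial-like cells.

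A share of cells can be read from the same counts. Cells above 19 member UMIs and at most 13 mitosis UMIs, the upper quartiles over the 4 classes, made up 17.96% of germ cells in the first library (Clopper-Pearson 13.4 to 23.4), 25.1% in the second (21.8 to 28.6), 30.7% in the third (27.4 to 34.1) and 46.8% in the last (44.8 to 48.8). By Stra8 bin at E14.5 the share was 21.7%, 26.2%, 46.3% and 64.9%. Cells above the member cut alone made up 26.9%, 48.9%, 51.3% and 71.9% over the stages, and 33.1%, 54.8%, 56.2% and 79.4% when all UMIs were used. The cut is a point on a continuous range, with 14% to 15.7% of germ cells within 1 UMI of it. The share above the member cut with at most 13 mitosis UMIs was 20%, 20.6%, 12.3% and 15.04% in interstitial-like cells. It was 28.3%, 16.5%, 8.22% and 8.61% in surface epithelial-like cells and at most 1.7% in supporting-like cells. Germ cells were below surface epithelial-like cells at E11.5 and above each somatic class from E12.5 on. The germ and interstitial-like intervals overlapped at E11.5 and E12.5. Hells counts in these shares, and none was computed without it.

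**Figure D3:**
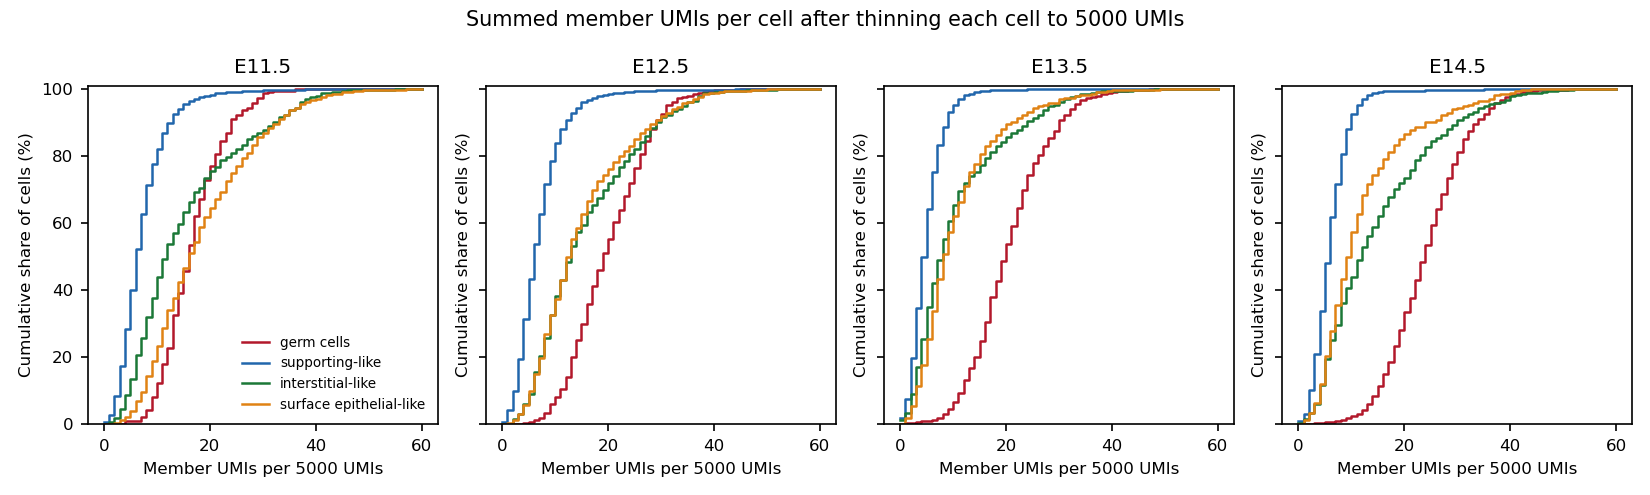
Cumulative share of cells (%) against the member UMIs of a cell after thinning to 5000 UMIs, by class and stage. At E14.5 the germ cell median of 24 UMIs is the highest of the 4 classes and the supporting-like median of 6 the lowest, and the germ cell and interstitial-like curves meet in the upper tail.

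Somatic classes, which mix dividing and other cells, were the comparison for mitotic use. In supporting-like cells, which leave the cell cycle early in the ovary, the members summed to 1502, 1422, 992 and 1167 CPM over the stages and the mitosis genes to 594, 530.1, 198 and 208 CPM. In interstitial-like cells the members summed to 3163, 3016, 2226 and 2831 CPM, and in surface epithelial-like cells to 3750, 2980.4, 2186 and 2427 CPM. Germ cells at E11.5 were therefore between these 2 classes, and from E12.5 on they were above all 3. The E11.5 order rests on Hells, 11.6% of the germ cell sum there and 2.88% and 3.37% of the interstitial-like and surface epithelial-like sums. Without Hells, germ cells were below both at E11.5. In the somatic classes Hells was 2.88% to 4.69% of the sum.

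**Figure D4:**
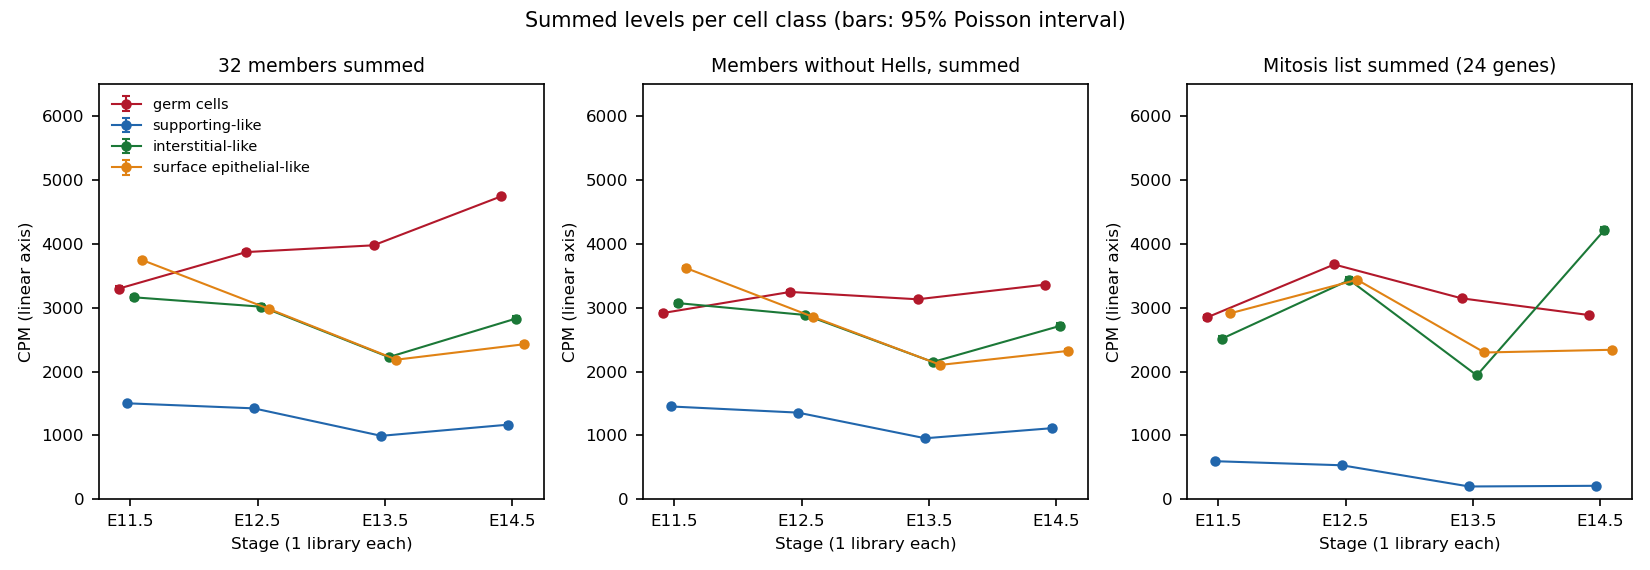
Summed CPM (linear axis) of the 32 members, of the members without Hells and of 24 mitosis genes, by stage and class, with 95% Poisson intervals as bars. The germ cell sum climbs from 3300.3 to 4745 CPM, while the surface epithelial-like sum goes from 3750 to 2427 CPM.

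Each somatic sum stood lower in the last library than in the first, with log2 ratios (E14.5 over E11.5) of -0.36 in supporting-like (interval -0.40 to -0.33), -0.16 in interstitial-like (-0.19 to -0.13) and -0.63 in surface epithelial-like cells (-0.65 to -0.60). In supporting-like cells 0 members were called higher and 11 lower, where 20.1% and 9.92% of genes were. Nasp was at 163, 128, 70.9 and 92.8 CPM there and Tyms at 73.2, 51.7, 35.8 and 39.7 CPM, both lowest at E13.5. In surface epithelial-like cells 0 were called higher and 19 lower, where 15% and 9.21% of genes were. Rrm2 was at 249.6, 149.6, 88.5 and 93.0 CPM in them, Pcna at 188, 106, 87.3 and 76.2 CPM and Cdc6 at 22.3, 12.2, 7.42 and 8.34 CPM. In interstitial-like cells 6 were called higher (Pola1, Clspn, Usp1, Blm, Rad51ap1 and Wdr76) and 3 lower (Pcna, Fen1 and Ung), where 9.5% and 10.2% of genes were. Of the wider replication genes, 4 were called higher and 12 lower in supporting-like, 6 and 6 in interstitial-like and 0 and 24 in surface epithelial-like cells. Of the mitosis genes it was 0 and 19, 13 and 0, and 0 and 7. The mitosis sum of interstitial-like cells was at 2517, 3435, 1939 and 4213 CPM, and since different clusters fill each class over time, a shift between clusters and a change within cells cannot be told apart.

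The classes come from the same 4 libraries, so germ cells were tested against each of them with limma on log2(CPM + 5) of the summed UMIs, the library as a block, and Benjamini-Hochberg adjustment over all genes tested. The 4 pairs are 4 stages, so the error covers variation over stages, and p-values measure only the spread between these libraries. The question is which members germ cells hold at a level unlike that of each somatic class as a whole. These classes are not dividing cells alone. At E14.5, cells above neither cut (19 member and 13 mitosis UMIs) were 98.97% of supporting-like and 34.96% of interstitial-like cells. They were 66.9% of surface epithelial-like cells and 15.2% of germ cells. In these sums the share of dividing cells and the level per dividing cell cannot be told apart.

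Against supporting-like cells, 29 of 32 members were higher in germ cells, 2 were lower and Chaf1b was not called (adjusted p = 0.219). The background was 24.4% of 14992 genes higher and 39.9% lower, and the median difference was 1.52 for the members and -0.12 for all genes. The 24 mitosis genes were all called higher in this comparison, and 44 of the 55 wider replication genes. Against interstitial-like and surface epithelial-like cells 26 and 23 of those 55 were higher, and 5 and 4 lower.

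Against the other 2 classes the members split. Against interstitial-like cells 13 were higher and 6 lower (background 25.3% and 36.2% of 14237 genes), and against surface epithelial-like cells 11 were higher and 5 lower (background 23.6% and 35.3% of 14451). Their median differences were 0.20 and 0.29. A median-of-ratios scale, which moved the median gene by 0.18 and 0.15, gave 22 higher and 3 lower, and 22 higher and 5 lower, and it turned the sign of the uncalled Mcm4, Cdc6 and Rad51ap1 in the first comparison and of Rrm1 in the second. On that scale 33.8% of all genes were higher and 30.5% lower in the first comparison, and 31.3% and 30.1% in the second. Without the E12.5 library the interstitial-like comparison gave 7 higher and 4 lower, without the E13.5 library 5 higher and 6 lower. Without E13.5 the surface epithelial-like comparison gave 5 of each. The share of all genes called with a library left out was not computed, so fewer calls over all genes cannot be told from fewer among the members. Of the mitosis genes 5 were higher and 4 lower against interstitial-like cells, and 7 and 3 against surface epithelial-like cells.

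Hells stood furthest above the somatic classes. Its mean over the 4 libraries was 809 CPM in germ cells, 52.4 in supporting-like, 103 in interstitial-like and 109 in surface epithelial-like cells. The log2 differences were 3.70 ± 0.31 (SE, adjusted p = 0.000182 by limma), 2.78 ± 0.27 (adjusted p = 0.000157) and 2.70 ± 0.34 (adjusted p = 0.000896), and germ cells were higher in 4 of 4 libraries each time. Ung stood at 212 CPM in germ cells against 52.3, 58.2 and 82.9 CPM. Its difference was 1.72 ± 0.16 against interstitial-like cells (adjusted p = 0.000127 by limma), and at E14.5 it stood at 109 CPM against 41.8, 45.6 and 72.3 CPM. Gmnn, at 234 CPM against 34.1, 98.2 and 119 CPM, and Wdr76, at 42.7 against 8.32, 16.8 and 18.2 CPM, were also higher than in each class, as were Blm, Clspn, Mcm2, Mcm3, Cdc45, Tipin and Exo1. Some of these calls were near the threshold by limma. Adjusted p was 0.0499 for Exo1 and 0.0461 for Cdc45 against interstitial-like cells, and 0.0493 for Tipin against surface epithelial-like cells. Cdc45 was higher in 3 of 4 libraries against these 2 classes, as was Clspn against surface epithelial-like cells.

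Gins2, a subunit of the GINS complex of the helicase, went the other way. Its level over the stages was between 14.4 and 19.99 CPM in germ cells, against 39.9 to 126 CPM in the somatic classes. The difference was -2.22 ± 0.15 against interstitial-like cells (adjusted p = 4.2e-05 by limma) and -1.43 ± 0.19 against supporting-like cells (adjusted p = 0.000991), where nearly all other members were higher in germ cells. Rfc2 was lower in germ cells than in each class, at a mean of 63.5 CPM against 82.2, 123 and 127 CPM, though not called against supporting-like cells on the median-of-ratios scale. Chaf1b, Tyms and Dtl were lower than in interstitial-like and surface epithelial-like cells, and Rrm2 than in interstitial-like cells. Tyms differed by -0.67 ± 0.13 (adjusted p = 0.00449) and Rrm2 by -0.63 ± 0.16 (adjusted p = 0.0111), both against interstitial-like cells by limma. On the median-of-ratios scale Tyms, Rrm2 and Dtl were no longer called against interstitial-like cells. In germ cells the 3 nucleotide genes were 4.51% to 7.65% of the member sum, and 10.8% to 14.9% in interstitial-like and surface epithelial-like cells. Hells was 11.6% to 29.1% of the germ cell sum and 2.88% to 4.32% in these 2 classes, which lowers the germ cell share of the other members.

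**Figure D5:**
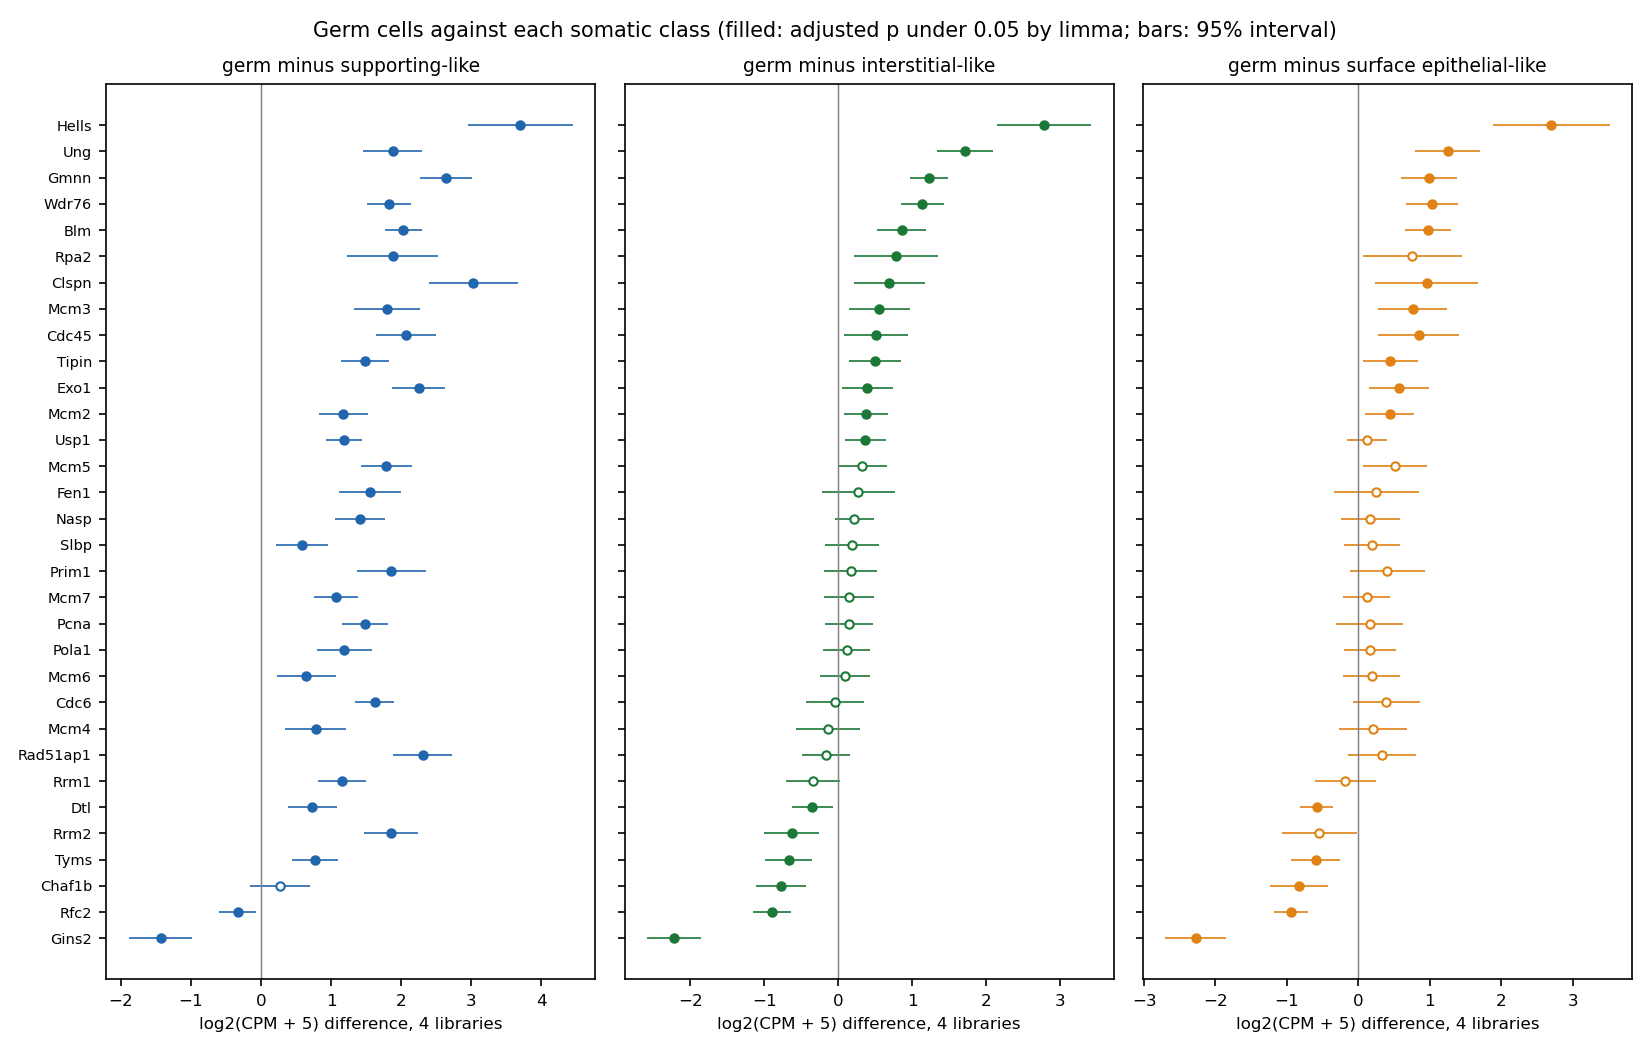
Difference in log2(CPM + 5) between germ cells and each somatic class for the 32 members, as estimated by limma over 4 libraries, with 95% intervals as bars and filled points for adjusted p under 0.05. Hells lies at 3.70, 2.78 and 2.70, and Gins2 at -1.43, -2.22 and -2.28.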

How the data were processed

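Single-cell RNA from 4 XX gonad libraries was measured. Per the submitters' processing notes, Cell Ranger 2.2.0 and mm10 were used. The deposited values are natural log values, ln(1 + UMIs / UMIs of the cell × 10000), which the authors normalized per cell. All 69792436 values above 0 were whole multiples of a cell's smallest at a relative tolerance of 1e-06 (100%), so UMIs were recovered.

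Cells over 20% mitochondrial UMIs and Scrublet doublets (94 to 120 per library, 1.96% to 2.44%) were removed. Other than germ cells, cells were clustered with scanpy 1.11.5 (2000 variable genes, 30 components, 15 neighbours, resolution 1) without the cell cycle and germ lists. Clusters were named by their raised markers, with limits on rival lists set after the clusters were seen. Of 23 clusters, 4 stayed unnamed (2.11% to 4.30% of cells). UMIs were summed per class and library. Limma 3.58.1 in R 4.3.3 tested genes with at least 50 UMIs. It was used in place of a count model because the table holds log values. Both statistics were tested on simulated data. Alternatives changed the germ cell rule, doublets, scale, pseudocount, filter, block, thinning, classes and libraries. All members are named, in full those with the highest level, the most calls or a direction against the sum. The members and lists were chosen with earlier results of these data known. Promoter sequences are RefSeq's (GRCm38.p6).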

Additional observations from a re-analysis of the deposited data

Results flagged for a closer look

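Between E14.5 and E11.5 the member sum moved in opposite directions in different classes. Its log2 ratio was 0.52 in germ cells, -0.36 in supporting-like cells, -0.16 in interstitial-like cells and -0.63 in surface epithelial-like cells. The median of all genes moved by 0.45, 0.09, -0.10 and 0.02 in the same classes. In germ cells the ratio of the sum was 0.20 without Hells and 0.086 on the median-of-ratios scale. The somatic sums were not recomputed on that scale. Rpa2 was called higher in germ cells (1.13) and lower in surface epithelial-like cells (-0.60), and Rad51ap1 was called higher in germ cells (0.67) and lower in surface epithelial-like cells (-0.66). With 1 library per stage these differences were not tested.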

How the results depend on the processing

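Over 45 results, 286 values were recomputed under alternatives, of which 226 stayed within the counting interval or within 1.5 times the count, 57 moved beyond it and 3 turned against a main value that counting error kept apart from 0. Counting also small values, 8 had another sign. Of these, 6 were among the 180 values of single members: Mcm5 between stages, Mcm5 by Stra8 at E13.5 (3 values, main 0.0078) and Rpa2 by Stra8 at E14.5 (2 values, main 0.0044). Counts of calls took higher and lower together, so a turn in direction does not show in them. Between E11.5 and E14.5 the median-of-ratios scale gave 12 member calls in germ cells against 13, within the limit. Those calls were 3 higher and 9 lower, against 10 and 3. The E14.5 to E11.5 log2 ratio of the member sum in germ cells was 0.47 with at least 5 of 6 germ markers, 0.20 without Hells and 0.086 on the median-of-ratios scale. That scale also turned the E13.5 to E12.5 ratio to -0.059 and that of Mcm5 between E14.5 and E11.5 to -0.13. The member difference between cells with 3 or more Stra8 UMIs and 0 was 0.055 (E13.5) and 0.047 (E14.5) with at least 5 of 6 germ markers, and 0.00033 and -0.0023 without Hells. At E14.5 it was 0.17 as a mean over cells and 0.20 with 6 or more Stra8 UMIs. The difference in the ratio to mitosis was 0.71 as a mean over cells and 0.50 without Hells. At a ratio of 2, 4 members passed the size rule in germ cells between E11.5 and E14.5, against 13 at 1.5. Germ cells against surface epithelial-like cells gave 27 calls on the median-of-ratios scale, against 16. Leaving out 1 library at a time gave 28 to 31 calls against supporting-like cells, 11 to 20 against interstitial-like cells and 10 to 23 against surface epithelial-like cells. Without the library block there were 30, 14 and 17 calls. The share of all genes called was not computed without a library or the block. For the size rule it was not computed at a ratio of 2 or on the median-of-ratios scale. The cause of these shifts was not tested, except that dropping libraries leaves fewer samples. Leaving out germ cells over 1% erythroid UMIs and adding the unnamed cluster led by Dppa5a were chosen after seeing the data, and none of these values moved beyond those limits.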
